A study of Mus musculus with 10 samples.

Results

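Immediate early genes are switched on within minutes of a stimulus, without new protein synthesis, and many of their products are transcription factors. AP-1 is a dimer of proteins of the Jun and Fos families that binds DNA and drives genes of growth, migration and matrix turnover. Serum and growth factors reach these genes mainly through the MEK and ERK kinases and the serum response factor. In mouse embryonic stem cells that cascade favours exit from the naive state, so a MEK inhibitor is often added to hold it back. The genes described here are 9 of the 54456 in the table, chosen by symbol: the Jun family genes Jun, Junb and Jund, the Fos family genes Fos and Fosl1, the immediate early genes Egr1, Ier2 and Ier3, and the AP-1 target Plaur. All 9 were found, and 7 reached the mean of 10 normalized counts needed for the test. Fosl1 and Egr1 did not.

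The study dissects SVA retrotransposon insertions in X-linked dystonia parkinsonism by rewriting the mouse Taf1 locus. RNA was sequenced from 7 libraries of C57BL/6J embryonic stem cells: 2 each of the converted lines conv-dSVA_F&D, conv-dSVA_F and conv-dSVA_D, and 1 of the wild-type line MK6. The genotype labels of all converted lines share a loxP site in Taf1, the plasmids pSpCas9 and pSpCas9GFP, LPSwapinRed_pUC19, a humanized Taf1 allele called hTAF1 mousified and converted, and the Cre plasmid pCAGiCre. They differ in the SVA removed: conv-dSVA_F has the SVAdel label, conv-dSVA_D the dSVA2 label and conv-dSVA_F&D both. All cells, the wild type included, grew on gelatin in 15% serum with LIF, 3 µM of the GSK3 inhibitor CHIR99021 and 1 µM of the MEK inhibitor PD0325901. The labels name no clone, so whether the 2 libraries of a converted genotype come from 1 line or clone is not known. Effects of line and of genotype cannot be told apart. The labels name no separate cultures for the replicates. How much of the spread between libraries, on which the p-values rest, is technical is therefore not known. The median log2 difference of chromosome 18 genes from the wild type was -0.03 and 0.51 in the 2 conv-dSVA_F&D libraries. What made these 2 libraries differ was not tested. The other 3 samples of the series were not analysed here.

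From 16588467 to 26562418 reads were assigned to genes in each library. Taf1, the edited gene, stood at 1116 and 1088 normalized counts in conv-dSVA_F&D and 501 and 589 in conv-dSVA_F. It stood at 362 and 418 in conv-dSVA_D and 2898 in the wild type. The build was mouse mm10, and how far reads of the humanized allele were counted as Taf1 was not tested. The 8 stem cell markers, Pou5f1 and Nanog among them, summed to between 119498 and 149475 normalized counts in converted libraries and to 150530 in the wild type. The 10 fibroblast markers summed to 189 and 266 in conv-dSVA_F&D, 395 and 309 in conv-dSVA_F, 169 and 109 in conv-dSVA_D and 780 in the wild type, with Lum at 0 in every library. The 4 macrophage markers summed to 360 to 439 normalized counts over all libraries. Nearly all of that was Cd68, at 349 to 419, while Csf1r had 4.06 to 20.7, Ptprc 0 to 4.90 and Adgre1 0 in every library. Chromosome 8, which carries Junb, Jund and Ier2, stood at a higher median level in some libraries. Its median log2 difference from the wild type was 0.01 and -0.01 in conv-dSVA_F&D, 0.63 and 0.44 in conv-dSVA_F, with 0.07 and 0.24 in conv-dSVA_D. The median of chromosome 6 stood at 0.00425 and -0.0131 in conv-dSVA_F&D, at 0.41 and 0.36 in conv-dSVA_F, with 0.15 and 0.14 in conv-dSVA_D.

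Promoter windows of 250 bases before to 50 after the transcription start were taken from RefSeq (GRCm38.p6), which matched 6 of the 9 genes: Jun, Junb, Jund, Fos, Ier3 and Plaur. The window of Jund (chr8:70697489-70697788) ends before the gene start at 70698949 that is used here, so the start at that position was not searched. The 6 windows were searched on both strands for the AP-1 site TGACTCA, the cAMP response element TGACGTCA and the CArG box of the serum response factor. The AP-1 site was in 5.20% of 32851 mouse windows, the cAMP response element in 1.79% and the CArG box in 1.63%. Of the 6 windows, only that of Plaur held one of these, an AP-1 site whose first base lay 69 bases before the start. Sites more than 250 bases before the start lie outside the windows and were not searched. The AP-1 variant TGACATCA, searched after the Jun window was read, is in 3.62% of all windows and began 45 bases before the start of Jun. It does not overlap the other motifs. Plaur and Junb are shown because they changed most, and Jun as the founding AP-1 gene. Capitals mark the motifs, and the Junb window held none. They lie at chr7:24462233-24462532 (plus strand) for Plaur, chr4:95052173-95052472 (minus) for Jun and chr8:84978699-84978998 (minus) for Junb, each printed on the strand of its gene.
Plaur: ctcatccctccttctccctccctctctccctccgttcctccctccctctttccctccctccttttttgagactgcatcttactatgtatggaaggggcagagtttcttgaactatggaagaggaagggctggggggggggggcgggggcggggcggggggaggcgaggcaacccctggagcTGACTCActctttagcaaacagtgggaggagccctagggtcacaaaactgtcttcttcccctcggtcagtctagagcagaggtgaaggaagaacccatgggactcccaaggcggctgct
Jun: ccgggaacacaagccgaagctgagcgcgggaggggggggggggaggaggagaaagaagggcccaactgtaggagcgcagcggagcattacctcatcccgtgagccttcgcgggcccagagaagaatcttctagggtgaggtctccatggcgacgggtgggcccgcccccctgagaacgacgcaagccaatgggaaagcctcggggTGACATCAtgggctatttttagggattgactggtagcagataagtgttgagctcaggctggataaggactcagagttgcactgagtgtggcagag
Junb: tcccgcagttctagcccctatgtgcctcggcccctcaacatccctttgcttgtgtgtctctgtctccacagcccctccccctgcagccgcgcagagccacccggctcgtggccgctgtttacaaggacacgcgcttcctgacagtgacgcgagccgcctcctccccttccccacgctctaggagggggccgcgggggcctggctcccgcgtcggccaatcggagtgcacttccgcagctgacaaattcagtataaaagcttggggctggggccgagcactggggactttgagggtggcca

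Levels of different genes were compared per kilobase of exon, as the mean of 7 libraries. Ier2 was highest at 880 normalized counts per kb, above Ier3 (358 per kb) in 7 of 7 libraries with no overlap of their ranges. Of 14746 tested genes with a known length, 91.4% stood lower than Ier2. Ier3 and Jund (355 per kb) were not separated, with Ier3 higher in 5 of 7 libraries. Jund was above Junb (109 per kb) in 7 of 7 libraries, although their ranges over libraries overlapped. Junb was above Plaur (55.5 per kb) in 6 of 7 libraries and Plaur above Fos (24.5 per kb) in 7 of 7, with overlapping ranges. Fos and Jun (22.1 per kb) were not separated, with Fos higher in 3 of 7 libraries. Jun was above Egr1 (2.22 per kb) in every library with no overlap, and Egr1 was above Fosl1 (1.59 per kb) in 5 of 7. Egr1 and Fosl1, genes that growth factors strongly induce, were thus close to the limit of detection in these libraries.

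**Figure D1:**
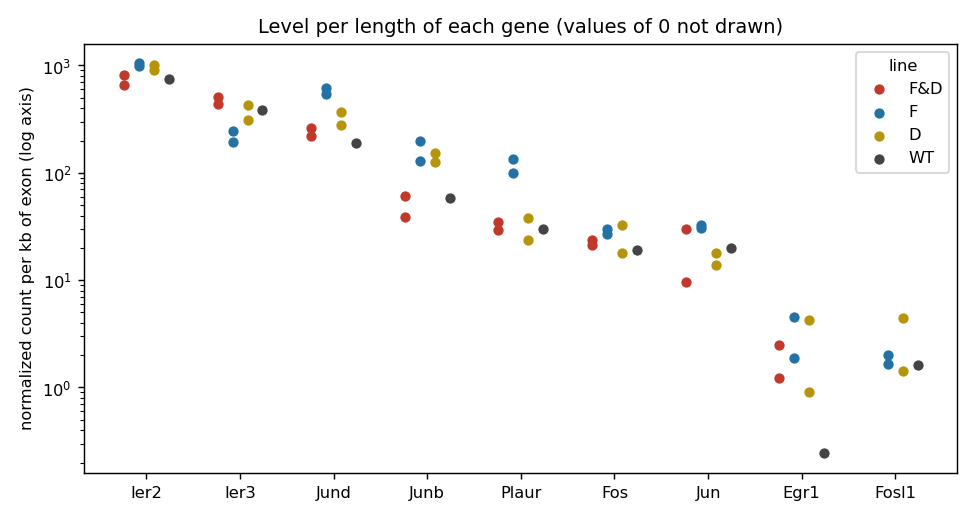
Normalized count per kb of exon (log axis) of each gene in each library, with conv-dSVA lines and wild type in colour. Ier2 lies at the top and Egr1 and Fosl1 at the bottom, and the 2 Fosl1 values of 0 in conv-dSVA_F&D are not drawn.

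Junb encodes a Jun family protein that can oppose Jun on some targets. It lies on chromosome 8 (84974484 to 84978718, minus strand, GRCm38). Junb had 139 and 89.2 normalized counts in conv-dSVA_F&D, 295 and 459 in conv-dSVA_F, 288 and 352 in conv-dSVA_D and 133 in the wild type. Both single-deletion lines were thus above the double-deletion line and the wild type, with no overlap, while the wild-type value lay inside the range of conv-dSVA_F&D. Junb fell in conv-dSVA_F&D against conv-dSVA_D, with a log2 difference of -1.51 ± 0.30 (SE; limma adjusted p = 0.0326). It also fell against conv-dSVA_F, with a log2 difference of -1.72 ± 0.30 (adjusted p = 0.0217). Between conv-dSVA_F and conv-dSVA_D the difference was 0.21 ± 0.30 (adjusted p = 0.79). Setting chromosome medians equal left the differences of conv-dSVA_F&D at -1.35 against conv-dSVA_D (adjusted p = 0.0536) and -1.18 against conv-dSVA_F (adjusted p = 0.106). The first call was also lost without conv-dSVA_F&D replicate 2 (-1.19, adjusted p = 0.0874), conv-dSVA_F replicate 2 (0.0527) and conv-dSVA_D replicates 1 (0.153) and 2 (0.219). The second was lost without any single converted library except conv-dSVA_F&D replicate 1, at adjusted p between 0.0509 and 0.134.

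**Figure D2:**
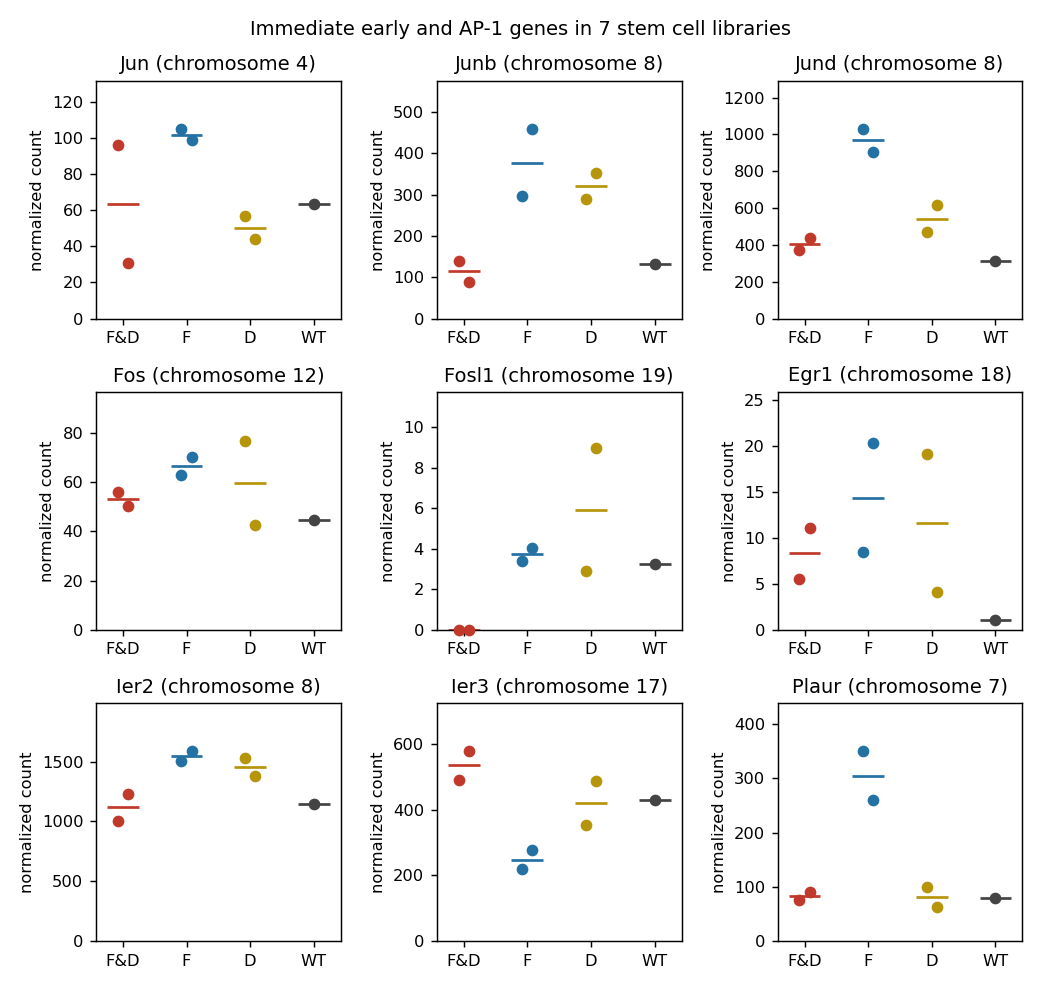
Normalized counts of the 9 genes in each library (points) with the group mean (bar), for conv-dSVA_F&D, conv-dSVA_F, conv-dSVA_D and wild type (1 library). Junb is high in both single-deletion lines, Plaur is high and Ier3 low in conv-dSVA_F, and Fosl1 is 0 in conv-dSVA_F&D.

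Jund encodes the most broadly expressed Jun family protein and lies on chromosome 8 at 70698949 to 70700616 (plus strand, GRCm38). Its level was 371 and 436 normalized counts in conv-dSVA_F&D, 1031 and 905 in conv-dSVA_F, 470 and 616 in conv-dSVA_D and 315 in the wild type. The conv-dSVA_F libraries were the highest, followed by conv-dSVA_D, and the wild type was the lowest, with no overlap between groups. Jund fell in conv-dSVA_F&D against conv-dSVA_F, with a log2 difference of -1.26 ± 0.19 (limma adjusted p = 0.0139). The difference of conv-dSVA_F&D from conv-dSVA_D was -0.42 ± 0.19 (adjusted p = 0.253), and that of conv-dSVA_F from conv-dSVA_D was 0.84 ± 0.19 (adjusted p = 0.0617). With chromosome medians set equal the first difference was -0.73 (adjusted p = 0.0744), and without conv-dSVA_F replicate 1 it was -1.17 (adjusted p = 0.153). The difference of conv-dSVA_F from conv-dSVA_D passed in 4 of 14 alternative settings. Among these were DESeq2 (adjusted p = 0.00582) and the fits without conv-dSVA_F&D replicate 1 or 2. With chromosome medians set equal that difference was 0.47.

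Ier2, an immediate early gene for a nuclear protein, is the third member on chromosome 8 (84661331 to 84662852, minus strand). It stood at 1005 and 1230 normalized counts in conv-dSVA_F&D, 1502 and 1589 in conv-dSVA_F, 1532 and 1376 in conv-dSVA_D and 1145 in the wild type. The single-deletion lines were again above the other libraries, but the whole spread was only 1.58-fold. No difference passed. The largest among converted lines was -0.47 ± 0.14 for conv-dSVA_F&D against conv-dSVA_F (limma adjusted p = 0.0946), which was 0.06 with chromosome medians set equal.

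The chromosome 8 genes were set beside their surroundings. Of 578 other protein-coding genes of chromosome 8 with a mean of at least 50, 166 (28.7%) passed as lower for conv-dSVA_F&D against conv-dSVA_F, and the median log2 difference over all 578 was -0.55. In that comparison 5 of the 578 had a difference below that of Junb, 21 below that of Jund and 343 below that of Ier2. Within 0.5 Mb of Junb, 24 genes with a mean of at least 50 had a median of -0.57 and lay between -0.99 and -0.21, so Junb was outside their range. Within 0.5 Mb of Jund, 28 genes had a median of -0.56, and 1 of them, Klhl26 at -1.47 (limma adjusted p = 0.0626), had a difference below that of Jund. Against conv-dSVA_D, 3.11% of the 578 genes were called lower in conv-dSVA_F&D, the median was -0.15, and none of the 578 had a difference below that of Junb. Whether the chromosome shift accounts for a part of each difference was not tested beyond setting the medians equal.

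**Figure D3:**
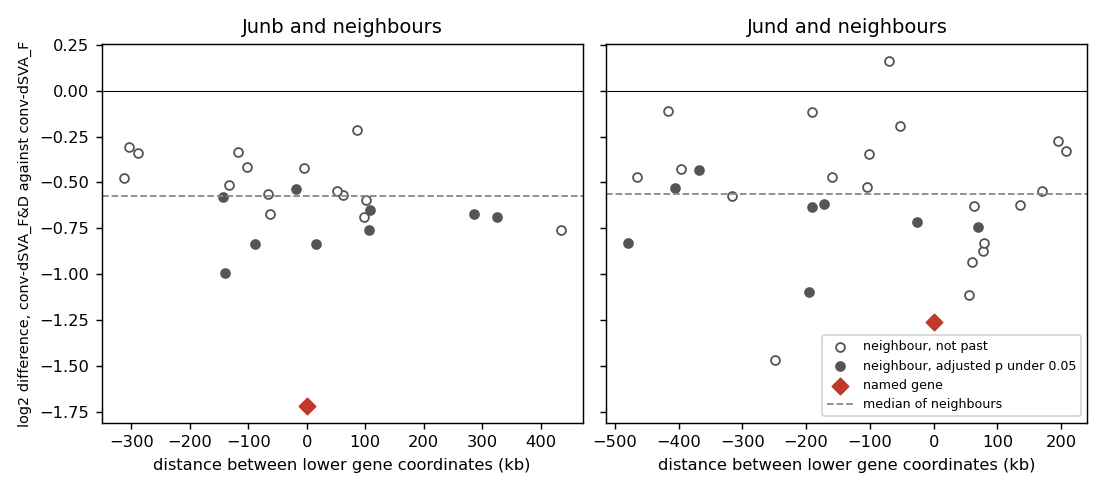
Log2 difference of conv-dSVA_F&D against conv-dSVA_F for Junb and Jund (diamonds) and for genes within 0.5 Mb (circles, filled where adjusted p was under 0.05), by distance between lower gene coordinates in kb. The neighbours' medians (dashed) are -0.57 and -0.56, and Junb at -1.72 lies below all of its 24 neighbours.

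Per library, Jund stood above the chromosome 8 median in 6 of 6 converted libraries. The log2 difference from the wild type, less that median, was 0.23 and 0.48 in conv-dSVA_F&D, 1.08 and 1.08 in conv-dSVA_F, with 0.50 and 0.72 in conv-dSVA_D. For Junb it was 0.06 and -0.56 in conv-dSVA_F&D, 0.51 and 1.34 in conv-dSVA_F, with 1.04 and 1.15 in conv-dSVA_D. Ier2 followed the chromosome median more closely, at -0.19 and 0.11 in conv-dSVA_F&D, -0.24 and 0.03 in conv-dSVA_F, with 0.35 and 0.02 in conv-dSVA_D. These values share 1 wild-type library and are given as a description.

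**Figure D4:**
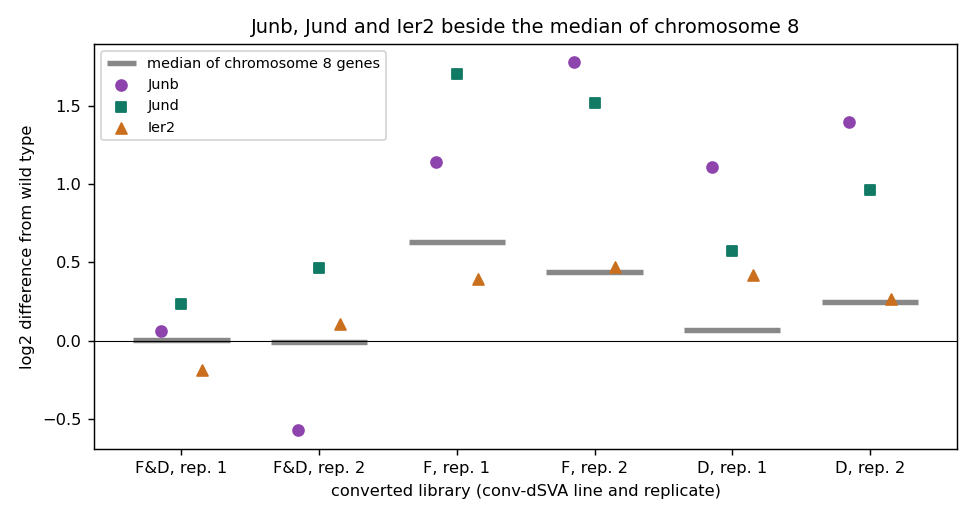
Log2 difference from the single wild-type library in each converted library for Junb, Jund and Ier2 (points) beside the median of chromosome 8 genes (grey bars). Junb lies above the bars in both single-deletion lines, and Ier2 lies within 0.35 of the bar in each library.

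Jun, the founding AP-1 gene, and Fos, its classic partner, did not pass in any comparison. Jun had 96.1 and 30.7 normalized counts in conv-dSVA_F&D, 105 and 98.5 in conv-dSVA_F, 56.7 and 44.1 in conv-dSVA_D and 63.3 in the wild type. The conv-dSVA_F libraries were the highest, but the 2 conv-dSVA_F&D libraries differed 3.14-fold from each other. The log2 difference of Jun was 1.01 ± 0.52 for conv-dSVA_F against conv-dSVA_D (limma adjusted p = 0.374) and -0.89 ± 0.52 for conv-dSVA_F&D against conv-dSVA_F (adjusted p = 0.373). Fos had 55.9 and 50.2 normalized counts in conv-dSVA_F&D, 63.0 and 70.1 in conv-dSVA_F, 76.8 and 42.5 in conv-dSVA_D and 44.8 in the wild type. All Fos values lay within 1.81-fold, and the conv-dSVA_D replicates alone spanned that whole range. Its largest log2 difference among converted lines was -0.32 ± 0.43, for conv-dSVA_F&D against conv-dSVA_F (adjusted p = 0.719). Jun lies on chromosome 4 (95049034 to 95052222) and Fos on chromosome 12 (85473890 to 85477273).

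Fosl1, which encodes the Fos family protein FRA1, was read too rarely for a test. It had 0 and 0 reads in conv-dSVA_F&D, 4 and 4 in conv-dSVA_F, 3 and 11 in conv-dSVA_D and 3 in the wild type. A count of 0 allows up to 3 reads, or 2.75 and 4.18 normalized counts in conv-dSVA_F&D replicates 1 and 2. The limit of replicate 1 lies below the value of every library outside conv-dSVA_F&D, the lowest of which is 2.88, and that of replicate 2 lies above all of them but conv-dSVA_D replicate 2 at 8.98. For reads summed over the libraries of a group, without adjustment for depth, the exact Poisson 95% interval was 0 to 3.69 in conv-dSVA_F&D, 3.45 to 15.8 in conv-dSVA_F, 7.65 to 23.5 in conv-dSVA_D and 0.619 to 8.77 in the wild type. The conv-dSVA_F&D interval thus overlapped those of conv-dSVA_F and the wild type but not that of conv-dSVA_D. Such limits cover counting error only, not the spread between libraries. Egr1, a zinc-finger factor that serum induces, had 6 and 8 reads in conv-dSVA_F&D, 10 and 20 in conv-dSVA_F, 20 and 5 in conv-dSVA_D and 1 in the wild type. All 6 converted libraries were above the wild type, whose exact Poisson 95% interval was 0.0253 to 5.57 reads. That interval overlaps those of conv-dSVA_F&D replicates 1 (2.20 to 13.1) and 2 (3.45 to 15.8). It also overlaps those of conv-dSVA_F replicate 1 (4.80 to 18.4) and conv-dSVA_D replicate 2 (1.62 to 11.7). The intervals of conv-dSVA_F replicate 2 and conv-dSVA_D replicate 1, both 12.2 to 30.9, lie above it. With no filter on low values, Egr1 in the converted lines against the wild type stood at 2.38 (limma adjusted p = 0.409) and Fosl1 at -0.47 (adjusted p = 0.827). Fosl1 lies on chromosome 19 (5447547 to 5455946) and Egr1 on chromosome 18. Genes of chromosome 18 had a median log2 difference from the wild type of 0.51 in the second conv-dSVA_F&D library, while every other converted library had one from -0.11 to -0.03.

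Plaur encodes the receptor of urokinase, which localises plasminogen activation at the cell surface, and is a known AP-1 target. It lies on chromosome 7 at 24462484 to 24475968 (plus strand, GRCm38). Plaur had 76.0 and 90.6 normalized counts in conv-dSVA_F&D, 351 and 260 in conv-dSVA_F, 99.9 and 62.1 in conv-dSVA_D and 78.6 in the wild type. Both conv-dSVA_F libraries were above all others, which lay close together. Plaur fell in conv-dSVA_F&D against conv-dSVA_F, with a log2 difference of -1.85 ± 0.34 (limma adjusted p = 0.0231). It rose in conv-dSVA_F against conv-dSVA_D by 1.93 ± 0.34 (adjusted p = 0.0310), and the difference between conv-dSVA_F&D and conv-dSVA_D was 0.07 ± 0.34 (adjusted p = 0.93). Both calls rest on the same conv-dSVA_F libraries. They passed with chromosome medians set equal, at -1.93 (adjusted p = 0.0280) and 1.96 (adjusted p = 0.0283). The first was lost without conv-dSVA_F replicates 1 (-1.64, adjusted p = 0.225) or 2 (-2.07, 0.0690). The second was lost without conv-dSVA_F replicates 1 (1.71, 0.376) or 2 (2.14, 0.0800) and without conv-dSVA_D replicates 1 (2.26, 0.123) or 2 (1.59, 0.173). The fibroblast marker sum was highest in the wild type, where Plaur was low, and second highest in conv-dSVA_F, where Plaur was high. In conv-dSVA_F the largest parts of that sum were Tagln (141 and 111) and Acta2 (115 and 79.2). Col1a2 had 4.25 and 2.03 there and Postn 0 and 0, against 96.1 and 57.9 in the wild type. The part of fibroblast markers in the result was not tested. In bulk RNA, more cells with the transcript and more transcript per cell cannot be told apart.

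Ier3, a stress-inducible immediate early gene that affects cell survival, lies on chromosome 17 (35821684 to 35822923, plus strand). It had 491 and 580 normalized counts in conv-dSVA_F&D, 220 and 276 in conv-dSVA_F, 352 and 488 in conv-dSVA_D and 431 in the wild type. The conv-dSVA_F libraries were the lowest, the reverse of Plaur and Jund. Ier3 rose in conv-dSVA_F&D against conv-dSVA_F by 1.11 ± 0.22 (limma adjusted p = 0.0282). Its differences of 0.36 ± 0.22 for conv-dSVA_F&D against conv-dSVA_D (adjusted p = 0.403) and -0.75 ± 0.22 for conv-dSVA_F against conv-dSVA_D (adjusted p = 0.135) did not pass. The call was lost with chromosome medians set equal (1.05, adjusted p = 0.0515) and without any single converted library except conv-dSVA_F&D replicate 1, at adjusted p between 0.0518 and 0.232.

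Members were called as follows, with the share over all 15240 tested genes beside each count. Between conv-dSVA_F&D and conv-dSVA_F, 4 of 7 tested members passed, 3 lower and 1 higher, against 3.92% of all genes (2.21% lower, 1.71% higher). The members' median log2 difference was -0.89, against -0.01 over all genes. That median is the value of Jun, which did not pass and stood at -1.70 to -0.08 when 1 library was left out. Of the 7 members, 3 lie on chromosome 8, where the median of other genes was -0.55. Between conv-dSVA_F&D and conv-dSVA_D, 1 of 7 passed, Junb, against 3.16% (1.21% lower), with medians of -0.11 for members and -0.00289 for all genes. Between conv-dSVA_F and conv-dSVA_D, 1 of 7 passed, Plaur, against 1.35% (1.08% higher, 0.262% lower), with medians of 0.21 and -0.01. The libraries of both sides did not overlap for 7 of 7 members in the first comparison, 4 of 7 in the second and 4 of 7 in the third, against 49.3%, 49.9% and 52% of all genes. The 3 comparisons share libraries and are not independent. Of the 4 calls in the first comparison, 2 were on chromosome 8, and with chromosome medians set equal 1 remained, Plaur.

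For the converted lines against the wild type, 0 of 7 tested members passed with limma (2 at unadjusted p under 0.05, Junb and Jund). EdgeR called 0 and DESeq2 1. Of all tested genes 1.15% passed, 0.623% higher and 0.525% lower. The converted libraries did not overlap the wild type for 1 of 7 members, Jund, against 37.8% of all genes. The nearest was Jund, at 0.91 ± 0.20 (limma adjusted p = 0.0625), which was higher in 6 of 6 converted libraries and passed with DESeq2 (adjusted p = 0.00684). Jund passed in only 3 of 14 alternative settings, the other 2 being the fits without conv-dSVA_F&D replicate 1 or 2. With chromosome medians set equal its difference was 0.68, and it did not pass. Junb stood at 0.82 ± 0.33 (adjusted p = 0.216), higher in 5 of 6. The spread of the 1 wild-type library was taken from the converted groups, so a line difference and the variation of single libraries cannot be told apart.

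**Figure D5:**
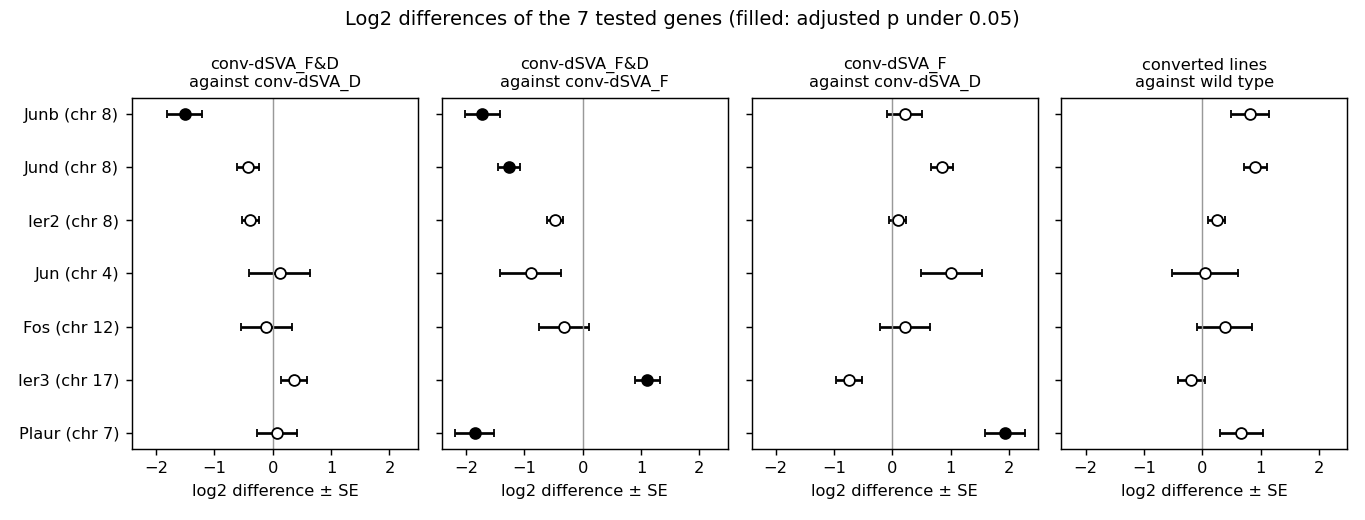
Log2 differences (± SE) of the 7 tested genes in the 4 comparisons, filled where the limma adjusted p was under 0.05. Filled points are Junb in the first panel, Junb, Jund, Ier3 and Plaur in the second and Plaur in the third, with none against the wild type.

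Some members overlap a gene on the opposite strand, and the strand setting of the counting was not given in the sources used here. The end of Junb overlaps Prdx2, which had 4608 to 6837 normalized counts and differed by -0.42 ± 0.16 between conv-dSVA_F&D and conv-dSVA_F (limma adjusted p = 0.178). Fosl1 overlaps Ccdc85b, at 72.3 to 152 normalized counts. Jun overlaps the antisense gene Junos and Jund overlaps Gm11175, which reached at most 8.51 and 13.6 normalized counts.

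Of 13 other AP-1 family genes 10 were tested, and none passed with limma in any of the 4 comparisons. Their medians were 0.02 for conv-dSVA_F&D against conv-dSVA_D, 0.13 for conv-dSVA_F&D against conv-dSVA_F and 0.03 for conv-dSVA_F against conv-dSVA_D. The smallest p in those 3 comparisons belonged to Atf2, Atf4 and Atf4, with log2 differences of -0.35, -0.34 and 0.44 (adjusted p = 0.162, 0.157 and 0.11). Fosb, the closest relative of Fos, had at most 5.08 normalized counts in any library and was not tested.

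Of 26 other immediate early genes 21 were tested. Between conv-dSVA_F&D and conv-dSVA_F, the libraries of both sides did not overlap for 12 of the 21, against 49.3% of all genes. Ccn1, a secreted matrix protein induced by serum, had 578 and 669 normalized counts in conv-dSVA_F&D, 879 and 662 in conv-dSVA_F, 355 and 310 in conv-dSVA_D and 423 in the wild type. It rose against conv-dSVA_D both in conv-dSVA_F&D (0.90 ± 0.19, limma adjusted p = 0.0392) and in conv-dSVA_F (1.20 ± 0.19, adjusted p = 0.0234). Mcl1, which protects cells from apoptosis, rose in conv-dSVA_F&D against conv-dSVA_D (0.57 ± 0.11, adjusted p = 0.0275), and Csrnp1, a nuclear factor, fell in conv-dSVA_F&D against conv-dSVA_F (-0.95 ± 0.16, adjusted p = 0.0183). In conv-dSVA_F&D against conv-dSVA_D, 2 of 21 were higher and 0 lower, beside 1.96% and 1.21% of all tested genes. For conv-dSVA_F&D against conv-dSVA_F it was 0 higher and 1 lower, beside 1.71% and 2.21%. For conv-dSVA_F against conv-dSVA_D it was 1 higher and 0 lower, beside 1.08% and 0.262%. Against the wild type the shares of all genes were 0.623% higher and 0.525% lower. The same shares apply to the lists below. Zfp36l1, an mRNA decay factor, was the 1 gene of the list called against the wild type, higher in the converted lines (1.12 ± 0.22, adjusted p = 0.0463). The medians lay between 0.02 and 0.14 in the 4 comparisons.

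Among 12 tested genes of the plasminogen system and other AP-1 targets, Hmox1, a heme-degrading enzyme gene on chromosome 8, fell in conv-dSVA_F&D against conv-dSVA_F (-0.65 ± 0.15, limma adjusted p = 0.0461, and -0.12 with chromosome medians set equal). Lgals3, which encodes a galectin, rose in conv-dSVA_F against conv-dSVA_D (1.48 ± 0.28, adjusted p = 0.0401). Its level was 1095 and 577 normalized counts in conv-dSVA_F, 245 and 330 in conv-dSVA_D and 643 in the wild type. No gene of this list passed in the other 2 comparisons. Plau, the gene of the protease that the Plaur product binds, had 5.57 or fewer normalized counts in conv-dSVA_F&D, 23.8 and 6.09 in conv-dSVA_F, 0 and 0 in conv-dSVA_D and 7.64 in the wild type, and was not tested.

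Genes acting between growth factor receptors and the immediate early genes were also read. Among kinases and upstream factors, Stat3, the LIF effector, fell in conv-dSVA_F&D against conv-dSVA_D (-0.57 ± 0.12, limma adjusted p = 0.0398), and Map2k7, a kinase that activates the JUN kinases and lies on chromosome 8, fell against conv-dSVA_F (-0.75 ± 0.16, adjusted p = 0.0342, and -0.21 with chromosome medians set equal). None of the list passed between conv-dSVA_F and conv-dSVA_D or against the wild type.

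Of 13 tested ERK feedback and ETS target genes, Spry4, an inhibitor of receptor signalling to ERK that lies on chromosome 18, was the 1 called. It had 148 and 393 normalized counts in conv-dSVA_F&D, 1025 and 1055 in conv-dSVA_F, 1811 and 803 in conv-dSVA_D and 49.1 in the wild type. As for Junb, both single-deletion lines stood above conv-dSVA_F&D and the wild type. Spry4 fell in conv-dSVA_F&D against conv-dSVA_D (log2 difference -2.32 ± 0.44, limma adjusted p = 0.0271) and against conv-dSVA_F (-2.10 ± 0.44, adjusted p = 0.0339). It rose in the converted lines against the wild type (3.75 ± 0.48, adjusted p = 0.0200). The 13 genes did not all move with Spry4. For conv-dSVA_F&D against conv-dSVA_D, 8 differences were negative and 5 positive. Against conv-dSVA_F, 10 were negative and 3 positive. Etv5 had the opposite sign to Spry4, at 0.63 ± 0.17 (adjusted p = 0.0827) and 0.11 ± 0.17 (adjusted p = 0.773). For the converted lines against the wild type, Etv5 stood at -0.78 ± 0.19 (adjusted p = 0.0731). The ERK phosphatase gene Dusp6 had 307 and 297 normalized counts in conv-dSVA_F&D, 703 and 670 in conv-dSVA_F, 783 and 343 in conv-dSVA_D and 241 in the wild type, and did not pass. Among 10 heat shock and handling stress genes, Dnajb1, a cochaperone gene on chromosome 8, fell in conv-dSVA_F&D against conv-dSVA_F (-0.69 ± 0.14, adjusted p = 0.0316, and -0.15 with chromosome medians set equal), and no other passed in any comparison. Each call of a gene outside the 9 members, in this and the 3 preceding paragraphs, depended on single libraries. Of the 6 fits with 1 library left out, such a call held in 0 (Hmox1) to 4 (Csrnp1, and Spry4 against the wild type).

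The genes with the most similar pattern over the 7 libraries were found by Pearson r of log2 levels among 9820 genes (9821 for Jun and Fos) with a mean of at least 100, as a description. The points share libraries, depth and line. Jund was most like Cog8 (r = 0.99), Sprtn (0.989) and Nup133 (0.989), all on chromosome 8. Junb was most like Snrk (0.989), Nprl3 (0.983) and Brat1 (0.979), none of them on chromosome 8. Plaur was most like Alas1 (0.986), Htra2 (0.976) and Smarcad1 (0.975), the last 2 on chromosome 6, whose median shift in conv-dSVA_F is given above. Ier3 was most like Septin6 (0.974), Fam81a (0.970) and Maf1 (0.967). Ier2 was most like Slc25a11 (0.989) and Ttpal (0.983). Jun and Fos had fewer close matches, with 22 and 8 genes above r = 0.9 against 115 for Junb and 180 for Jund.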

How the data were processed

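RNA was sequenced from stranded total RNA libraries (7 analysed). Per the submitters' processing notes, the tools included featureCounts 1.6.3, STAR 2.7.3 and DESeq2, with the mm10 build; their roles, the annotation and the strand setting are not given in the sources used here. The deposited signal holds gene counts that the authors had scaled with a size factor for each library, per the file's values. Whole reads were recovered from the steps between low values (100% of positive values within 0.1 of a whole read).

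limma 3.58.1 (R 4.3.3) with a variance trend was run on log2(normalized count + 1) over 15240 genes with a mean of at least 10, with 1 mean per group. Adding 1 understates differences of low genes. Tests were two-sided, p-values were adjusted by Benjamini and Hochberg across every tested gene, and 0.05 was the threshold. The residual degrees of freedom were 3. A difference is the log2 level in the group named first minus that in the other, ± SE. edgeR 4.0.16 and DESeq2 1.42.0 were run on the recovered reads as alternatives. The fit was tested on simulated counts. Positions and exon lengths came from GENCODE M21 (GRCm38), where 50618 of 54456 names matched. All 9 members were named. From other lists, up to 4 called genes with the smallest p were named per comparison. With none called, the gene with the smallest p was named. Fosb, Plau, Dusp6 and Etv5 were chosen after their values were seen. List symbols (4) were matched through older symbols. Some genes that the rule names are not reported here. The members and lists were chosen with earlier results of these data known.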

Additional observations from a re-analysis of the deposited data

How the results depend on the processing

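The number of genes called over the whole table was 482 for conv-dSVA_F&D against conv-dSVA_D, 597 for conv-dSVA_F&D against conv-dSVA_F, 205 for conv-dSVA_F against conv-dSVA_D and 175 against the wild type. In that order of comparisons it was 0, 0, 0 and 906 with no filter on low values (3823, 4058 and 3451 genes at unadjusted p under 0.05 in the first 3). It was 0, 0, 1 and 1 with no variance trend (2452 and 2535 at unadjusted p under 0.05 in the first 2) and 1031, 1206, 729 and 847 with DESeq2. With the libraries of both sides only it was 246, 200 and 504, and 0 against the wild type with each side as 1 group (1603 at unadjusted p under 0.05). Against the wild type it was 305 with edgeR and 275 with a pseudocount of 5. With chromosome medians set equal it was 191 for conv-dSVA_F&D against conv-dSVA_F. Without genes of chromosomes 6, 8, 18 and Y, a setting added after the data were seen, it was 183 in that comparison, 126 for conv-dSVA_F against conv-dSVA_D and 113 against the wild type. Leaving out 1 library gave 0 to 765, 0 to 865, 0 to 485 and 2 to 599.

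The number of members called was 1, 4, 1 and 0 in the same order. It was 0, 0 and 0 in the first 3 with no filter on low values (3, 6 and 3 at unadjusted p under 0.05) or no variance trend (1, 5 and 3). Chromosome medians set equal gave 0 and 1 in the first 2, and leaving out chromosomes 6, 8, 18 and Y gave 0 and 2. The latter setting takes Junb, Jund and Ier2 out of the test, so the loss of their calls there is by construction. Only the libraries of both sides gave 2 for conv-dSVA_F&D against conv-dSVA_F and 2 for conv-dSVA_F against conv-dSVA_D. DESeq2 gave 2 in the third and 1 against the wild type. Leaving out 1 library gave 0 to 1, 0 to 4, 0 to 2 and 0 to 1.

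Directions that turned were all of differences past no threshold. With chromosome medians set equal, Ier2 stood at 0.062 for conv-dSVA_F&D against conv-dSVA_F, and Junb at -0.17 and Ier2 at -0.29 for conv-dSVA_F against conv-dSVA_D. For conv-dSVA_F&D against conv-dSVA_D, Jun stood at -0.69 to 0.93, Plaur at -0.26 to 0.41 and Fos at -0.53 to 0.31 when 1 library was left out, and for conv-dSVA_F against conv-dSVA_D Junb at -0.11 to 0.53 and Fos at -0.21 to 0.63. Jun stood at -0.23 to 0.31 against the wild type. The cause was not tested where no setting's own construction shows it. No paired analysis was possible because the labels give no replicate numbers. Read counts limit Fosl1 and Egr1, and 2 libraries a group, or 1, limit all tests.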
